A study of Homo sapiens with 15 samples.

Results

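The genes examined here encode the digestive hydrolases of the enterocyte brush border. They were chosen by name, as the sucrase-isomaltase SI, the lactase LCT, the maltase-glucoamylase MGAM, the trehalase TREH, the peptidases DPP4, ANPEP, MME and ENPEP and the intestinal alkaline phosphatase ALPI. All 9 genes were matched to an identifier among the 69215 genes of the count tables. RNA was sequenced from Caco-2, an established line from a human colorectal adenocarcinoma whose cells grow as an enterocyte-like monolayer. It is 1 cell line, so that the 5 libraries of a group are not donors. The groups were cells treated with polysorbate 80 (PS80) at 0.05% for 24 h, cells treated with polysorbate 20 (PS20) at 0.05% for 24 h, and unexposed control cells, with 5 libraries each. PS80 and PS20 are nonionic food emulsifiers of the polyoxyethylene sorbitan type that carry oleate in PS80 and laurate in PS20. The days of culture and the number of separate cultures are not given in the sources used here, so p-values measure the spread between these libraries, which may be technical.

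The last steps of carbohydrate and protein digestion take place on the microvilli of enterocytes. Disaccharidases split sucrose, maltose, lactose and trehalose into monosaccharides, membrane peptidases trim peptides from their ends, and alkaline phosphatase removes phosphate groups at the same surface. SI and LCT are classic markers of enterocyte differentiation, and SI, DPP4, ANPEP and ALPI activities have long been used to follow the differentiation of Caco-2 monolayers.

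Expression is given as CPM, the reads of a gene scaled to a common library size. Total counts per library were 6769409 to 42271053 with PS80, 6749086 to 17251564 with PS20 and 4183096 to 13616301 in control. Epithelial identity was checked with 15 enterocyte markers, of which 13 averaged at least 5 CPM, among them VIL1, CDH17 and ANPEP, itself 1 of the 9 hydrolases, while FABP2 had 1 count in all libraries and KRT20 had 0. The summed level of these markers was 10609 to 11278 CPM with PS80, 8654 to 9489.7 CPM with PS20 and 10725 to 12191 CPM in control. KRT8 was the largest part, averaging 3957 CPM with PS80, 2684 CPM with PS20 and 4436 CPM in control. KRT18 averaged 1794, 1198 and 1826 CPM in the same order. FABP1 averaged 95.39, 149 and 102 CPM, and CDH17 795.1, 771.3 and 759.2 CPM. The goblet marker MUC2 had 1 count in total, and the enteroendocrine markers CHGA, NEUROD1 and GCG had 0. The goblet list as a whole, with 3 of 9 genes at 5 CPM or more, summed to 522.83 to 747.15 CPM with PS80, 777.44 to 943.78 CPM with PS20 and 456.26 to 685.61 CPM in control, nearly all of it AGR2. Of 16 markers of fibroblasts, endothelium and blood, HBB was at 0 and PTPRC, DCN and ACTA2 had 1 count each. Their sum was 391.23 to 415.19 CPM with PS80, 243 to 269.65 CPM with PS20 and 370.46 to 502.53 CPM in control, most of it TAGLN and COL1A1. Crypt markers summed to 161.45 to 213.43 CPM with PS80, 140.69 to 171.42 CPM with PS20 and 187.16 to 228.01 CPM in control, and enteroendocrine markers to 10.021 to 13.976, 7.5404 to 11.5 and 15.436 to 23.375 CPM in the same order. The mitochondrially encoded share of the counts was 1.45 to 2.97% with PS80, highest in replicates 1 and 2 at 2.15 and 2.97%, 2.03 to 2.58% with PS20 and 1.497 to 1.914% in control, so that every PS20 library lay above every control library. Of the tested markers, 0 of 13 enterocyte, 0 of 3 goblet and 0 of 2 enteroendocrine genes rose with PS80. There 3, 0 and 1 fell, and with PS20 1, 1 and 1 rose and 6, 2 and 1 fell. Of 5 tested crypt markers 1 rose and 2 fell with PS80, and 0 rose and 1 fell with PS20. Of 7 tested markers of fibroblasts, endothelium and blood 2 rose and 1 fell with PS80, and 1 rose and 2 fell with PS20. Called were 23.1% of the enterocyte list with PS80 and 53.8% with PS20, beside 33.4% and 48.3% of all tested genes. The part of these shifts in the results on the hydrolases was not tested, and in bulk RNA fewer cells of a type and less RNA per cell cannot be told apart.

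Per length, DPP4 and ALPI were the most abundant of these mRNAs in every group and the other disaccharidases and peptidases were far below them. Levels between genes are compared here as CPM per kilobase of exon. The length is that of all annotated exons of a gene merged, 14432 bases for DPP4, 3351 for ALPI and 6139 for SI. It can exceed the length of the transcripts expressed, which was not tested. Levels and shares are then too low for such a gene, and distances between genes are approximate. In control cells DPP4 averaged 33.1 ± 2.63, ALPI 22.9 ± 1.77, SI 3.34 ± 1.54, ANPEP 1.95 ± 0.389, LCT 1.33 ± 0.296, ENPEP 0.269 ± 0.0666, TREH 0.116 ± 0.0854 and MGAM 0.0279 ± 0.00998 CPM per kilobase (mean ± SD, n = 5). The control ranges of SI and ANPEP, of ANPEP and LCT, and of ENPEP and TREH overlapped, whereas those of DPP4 and ALPI and of LCT and ENPEP did not. Of the distinct exon lengths of MGAM 29 of 51 were shared with a gene annotated on the scaffold KI270803.1. SI shared 26 of 36 with a different gene on that scaffold. The other genes shared 8 of 35 (ANPEP) to 9 of 22 (TREH) with the scaffold gene that matched each best. Only lengths were compared, not sequences. All 6519 genes on scaffolds and patches had 0 counts. Whether copies on scaffolds lowered the counts of MGAM or SI was not tested.

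The order in the middle of this series differed between exposed and control cells. SI stood above ANPEP in 0 of 5 libraries with PS80, 0 of 5 with PS20 and 5 of 5 control libraries, with median ratios of 0.429, 0.411 and 1.585 per kilobase. SI made up 1.17% ± 0.227 of the summed level of the 9 genes per kilobase with PS80, 0.631% ± 0.154 with PS20 and 5.16% ± 1.96 in control (SD, n = 5). DPP4 held the largest share, at 58.9% ± 3.04 with PS80, 55.6% ± 2.05 with PS20 and 52.6% ± 2.46 in control, and ALPI held 35.4% ± 2.89, 41.3% ± 2.03 and 36.5% ± 2.23 in the same order.

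**Figure D1:**
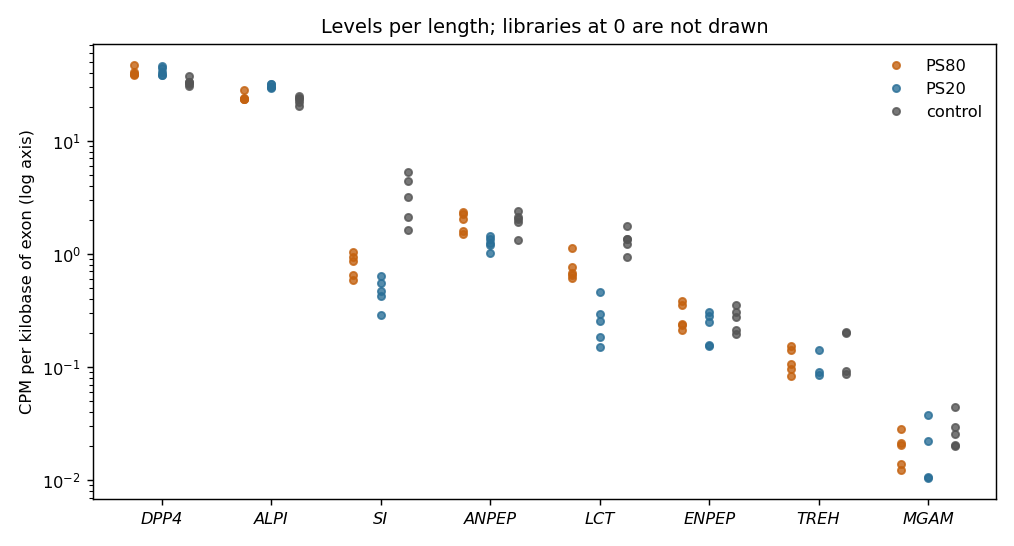
Level of each hydrolase mRNA in CPM per kilobase of exon on a log axis, 1 point per library, with PS80 in orange, PS20 in blue and control in grey; libraries at 0 are not drawn, and MME, with 1 count in all libraries, is left out. DPP4 and ALPI lie above all others in every group, and the SI points of both exposures lie below the lowest control point of 1.63 CPM per kilobase.

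A promoter was matched for 8 of the 9 genes, all except LCT. Those of 4 genes are shown: SI, which fell with both emulsifiers, MGAM, its close relative in sequence and function, and DPP4 and ALPI, which carry most of the hydrolase mRNA. The sequences are RefSeq promoters of GRCh38.p14, 250 bases before to 50 after the start, read 5′ to 3′ on the strand of the gene. Capitals mark TTTAT, the core letters bound by the intestinal factor CDX2, searched on both strands, and no 2 matches overlap.
SI, chr3:165078447-165078746, minus strand: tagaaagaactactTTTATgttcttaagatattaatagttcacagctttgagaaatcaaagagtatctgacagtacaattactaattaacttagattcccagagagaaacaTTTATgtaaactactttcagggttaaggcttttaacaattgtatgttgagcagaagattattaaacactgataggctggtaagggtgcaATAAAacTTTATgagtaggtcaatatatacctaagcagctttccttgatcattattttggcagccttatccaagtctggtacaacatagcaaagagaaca
MGAM, chr7:141995629-141995928, plus strand: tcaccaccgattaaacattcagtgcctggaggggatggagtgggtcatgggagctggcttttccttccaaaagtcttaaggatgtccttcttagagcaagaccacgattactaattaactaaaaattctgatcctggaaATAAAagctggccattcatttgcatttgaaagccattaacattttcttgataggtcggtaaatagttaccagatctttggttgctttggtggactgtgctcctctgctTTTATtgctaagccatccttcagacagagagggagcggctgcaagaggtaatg
DPP4, chr2:162074166-162074465, minus strand: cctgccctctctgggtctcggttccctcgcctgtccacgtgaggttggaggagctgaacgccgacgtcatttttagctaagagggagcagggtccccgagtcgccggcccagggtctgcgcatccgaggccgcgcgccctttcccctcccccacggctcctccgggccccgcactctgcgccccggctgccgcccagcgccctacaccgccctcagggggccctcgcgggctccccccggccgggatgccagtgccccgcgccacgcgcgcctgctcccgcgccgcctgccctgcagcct
ALPI, chr2:232455903-232456202, plus strand: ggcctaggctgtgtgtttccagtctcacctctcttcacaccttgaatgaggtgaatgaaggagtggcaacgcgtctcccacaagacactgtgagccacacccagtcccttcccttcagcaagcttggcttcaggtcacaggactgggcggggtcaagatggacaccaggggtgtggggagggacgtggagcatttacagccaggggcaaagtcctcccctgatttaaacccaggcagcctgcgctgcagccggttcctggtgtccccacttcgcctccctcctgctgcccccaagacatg
The SI window held TTTAT 4 times, with first bases 236, 139, 50 and 43 bases before the start (that at 50 on the opposite strand). The MGAM window held TTTAT 2 times, at 111 (opposite strand) and 3 bases. ENPEP, which passed in no comparison, held it at 80 and 29 bases. These letters were not found in the windows of DPP4, ALPI, ANPEP, TREH and MME. The longest run that SI and MGAM shared was attactaattaact, 14 bases that start 173 bases upstream in SI and 144 in MGAM. Of all 35116 promoters 2 held this run, those of SI and MGAM. TTTAT was thus in 3 of the 12 windows of the 8 genes, each of another gene, beside 34.89% of all 35116 promoters. The GATA letters AGATAA, in 10.33% of all, were in 0 of the 12 windows of the 8 genes. Such matches describe the letters only.

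Of the 9 genes, 6 had enough counts for the test across all 12769 expressed genes, SI, LCT, DPP4, ANPEP, ALPI and ENPEP. The test was edgeR's quasi-likelihood F-test, its p-values adjusted over all tested genes by the Benjamini-Hochberg method, and a gene was called at an adjusted p under 0.05. With PS80 against control 1 of the 6 rose and 2 fell, where 33.4% of all tested genes were called, 17.4% higher and 16% lower. With PS20 against control 2 rose and 3 fell, where 48.3% of all tested genes were called, 24.4% higher and 23.9% lower. With PS80 against PS20 3 were higher and 1 was lower, where 35.5% were called, 18.2% higher and 17.3% lower. The median log2 fold change of the 6 genes was -0.03 with PS80, -0.43 with PS20 and 0.41 for PS80 over PS20, beside 0.0017, 0.01 and -0.0021 over all tested genes. The comparisons share libraries, so their values are not independent of each other.

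**Figure D2:**
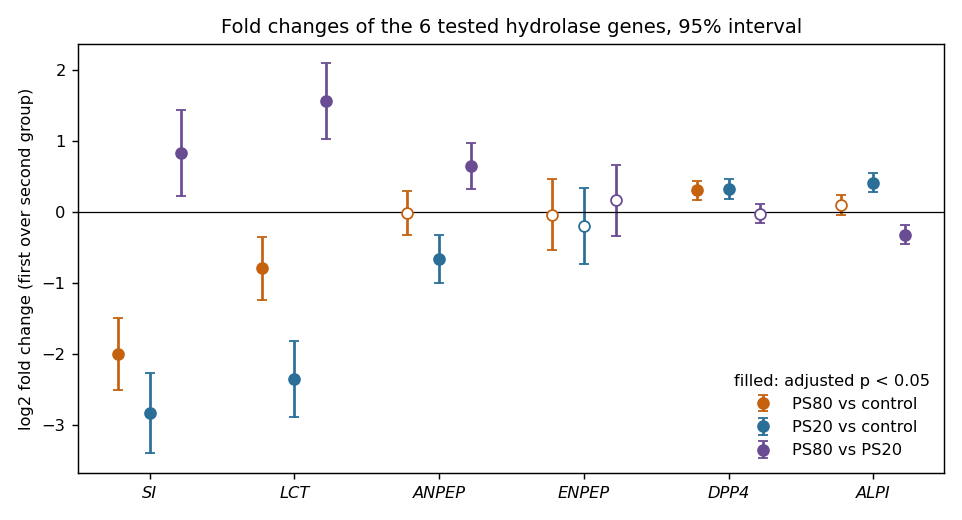
Log2 fold change of the 6 tested hydrolase genes with its 95% interval, for PS80 over control (orange), PS20 over control (blue) and PS80 over PS20 (purple); filled points passed an adjusted p of 0.05. SI and LCT lie below 0 with both emulsifiers, DPP4 above 0 with both, and ALPI and ANPEP were called with PS20 and not with PS80.

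SI fell with both emulsifiers, by 4.004-fold with PS80 (95% interval 2.83 to 5.68) and by 7.11-fold with PS20 (4.79 to 10.6). Sucrase-isomaltase splits sucrose and the branch points of starch fragments. SI (ENSG00000090402.8, chr3:164978898-165078496, GRCh38) had 5.77, 6.34, 3.58, 5.34 and 4.04 CPM in PS80 replicates 1 to 5, and 3.40, 1.75, 2.59, 3.91 and 2.88 CPM in PS20 replicates 1 to 5, against 32.6, 27.3, 10.03, 19.7 and 13.0 CPM in control replicates 1 to 5. Every exposed library lay below every control library, and the 2 exposed groups overlapped each other. Over all tested genes, the CPM ranges of the 2 groups did not overlap for 19.6% with PS80 and for 32.5% with PS20. By edgeR the log2 fold change was -2.002 ± 0.24 (SE) with PS80 (adjusted p = 3.63e-06) and -2.83 ± 0.27 with PS20 (adjusted p = 4.857e-08). Of the 12769 tested genes 1 had a lower log2 fold change than SI with PS80 and 3 had a lower log2 fold change with PS20.

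The control level of SI was spread widely, with an SD of 9.47 CPM around a mean of 20.5 CPM (n = 5). Control replicates 1 and 2 averaged 29.9 CPM and control replicates 3 to 5 averaged 14.2 CPM. Within replicates 1 and 2 alone SI was 4.85-fold lower with PS80 and 11.6-fold lower with PS20, and within replicates 3 to 5 alone 3.57-fold and 5.03-fold lower, all 4 past the threshold (adjusted p of 9.82e-06, 2.487e-07, 1.627e-07 and 1.546e-09 by edgeR). The 2 emulsifiers differed in SI by 1.78-fold (log2 fold change of PS80 over PS20 0.83 ± 0.29, adjusted p = 0.0316 by edgeR), with means of 5.01 ± 1.17 CPM with PS80 and 2.91 ± 0.819 CPM with PS20. This difference did not hold up: it missed the threshold without PS80 replicate 1 (adjusted p = 0.0538), PS80 replicate 2 (0.106), PS20 replicate 2 (0.0838), PS20 replicate 3 (0.0838) or PS20 replicate 5 (0.0557), in replicates 3 to 5 alone (0.1275) and with a robust estimate of the dispersion (0.0676).

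LCT fell with both emulsifiers and further with PS20. LCT encodes lactase-phlorizin hydrolase, which splits lactose. LCT (ENSG00000115850.10, chr2:135787850-135837184) had 4.05, 5.01, 4.47, 7.499 and 4.26 CPM in PS80 replicates 1 to 5, and 1.92, 1.22, 0.979, 3.02 and 1.68 CPM in PS20 replicates 1 to 5, against 11.6, 8.85, 8.12, 8.95 and 6.15 CPM in control replicates 1 to 5. The PS20 libraries lay below all others, and the PS80 group overlapped the control group through PS80 replicate 4. The ranges of PS20 and control did not overlap for 32.5% of all tested genes. The log2 fold change was -0.79 ± 0.21 with PS80 (1.73-fold lower, adjusted p = 0.00681) and -2.35 ± 0.26 with PS20 (5.10-fold lower, adjusted p = 2.306e-07) by edgeR. In replicates 3 to 5 alone the PS80 value was -0.60 and missed the threshold (adjusted p = 0.0534), whereas in replicates 1 and 2 alone it was -1.115 (adjusted p = 0.00796).

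LCT was the gene of the 6 with the largest tested difference between the emulsifiers. PS80 cells had 2.95-fold the LCT mRNA of PS20 cells (95% interval 2.03 to 4.27, adjusted p = 8.751e-05 by edgeR), and, as a place in the order of all genes, 34 of the 12769 tested genes had a higher log2 fold change of PS80 over PS20. The value was 2.97-fold in replicates 1 and 2 alone and 3.02-fold in replicates 3 to 5 alone. The CPM ranges of PS80 and PS20 did not overlap for LCT, ANPEP and ALPI, and did not overlap for 22.7% of all tested genes.

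The ratio of LCT to SI counts within a library was compared as a measure that does not depend on library scaling. It was chosen after the values were seen, with that of ALPI to DPP4. The log2 ratio of LCT to SI was 0.01 ± 0.43 with PS80, -0.78 ± 0.39 with PS20 and -1.13 ± 0.51 in control (mean ± SD, n = 5). PS80 exceeded control by 1.135 (exact two-sided permutation p = 0.0238) and PS20 by 0.79 (exact permutation p = 0.0159), and PS20 exceeded control by 0.35 (exact permutation p = 0.254), where the smallest p that 252 splits can give is 0.00794. Adjusted over the 6 ratio tests, these permutation p-values were 0.0635, 0.0635 and 0.262, so that none passed. With PS80 and control libraries of the same number taken as pairs, the difference was above 0 in 5 of 5 pairs, at 0.63 to 1.62 (exact sign-flip permutation p = 0.0625, the smallest that 32 sign changes can give). PS80 exceeded control by 1.133 in replicates 1 and 2 and by 1.136 in replicates 3 to 5. The difference between PS80 and PS20 was 0.25 in replicates 1 and 2 and 1.148 in replicates 3 to 5, and that between PS20 and control 0.88 and -0.01. Without PS80 replicate 2 the adjusted exact permutation p was 0.0357 for PS80 against control and for PS80 against PS20. Without control replicate 3 it was 0.0476 for PS80 against control, and without PS80 replicate 1 it was 0.0476 for PS80 against PS20. These were the only passes, 2 of 11 alternatives for PS80 against control and 2 of 10 for PS80 against PS20. The highest adjusted exact permutation p was 0.0952 in both comparisons, so the result depends on which library is left out.

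**Figure D3:**
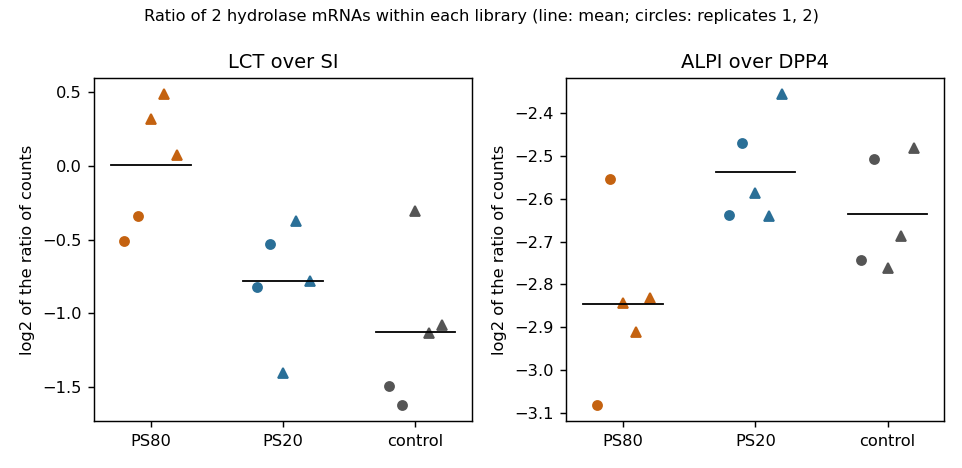
Log2 ratio of LCT to SI counts (left) and of ALPI to DPP4 counts (right) in each library of PS80, PS20 and control, with circles for replicates 1 and 2, triangles for replicates 3 to 5 and a line at the group mean. The mean LCT to SI ratio is highest with PS80, at 0.01, and the mean ALPI to DPP4 ratio is lowest with PS80, at -2.85.

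MGAM and TREH were too low for the main test. Maltase-glucoamylase releases glucose from maltose and starch fragments, and trehalase splits trehalose. MGAM had 18 counts in the PS80 libraries, 8 in the PS20 libraries and 11 in the control libraries, or 0.198 CPM (95% exact Poisson interval 0.118 to 0.313), 0.164 CPM (0.071 to 0.324) and 0.281 CPM (0.14 to 0.503), intervals that cover counting error only and overlap each other. TREH had 35, 11 and 15 counts in the same order, or 0.386 CPM (0.269 to 0.536), 0.226 CPM (0.113 to 0.405) and 0.383 CPM (0.214 to 0.632). In the alternative fit without a filter on low counts, neither gene was called in any comparison. Whether either gene differed between the groups cannot be decided at such low counts. Of the exonic bases of TREH 22.5% also belong to PHLDB1 on the opposite strand.

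DPP4 rose by about the same amount with both emulsifiers. Dipeptidyl peptidase 4 removes dipeptides from peptides with proline or alanine in the second position. DPP4 (ENSG00000197635.11, chr2:161992245-162074394) had 681.7, 555.6, 563.4, 586.9 and 564.7 CPM in PS80 replicates 1 to 5, and 667.1, 555.2, 591.8, 632.0 and 548.8 CPM in PS20 replicates 1 to 5, against 539.8, 474.1, 462.9, 475.4 and 436.9 CPM in control replicates 1 to 5. All 10 exposed libraries lay above the highest control library. Over all tested genes, the ranges did not overlap control for 19.6% with PS80 and 32.5% with PS20. The fold change was 1.24 with PS80 (log2 0.31 ± 0.07, adjusted p = 0.00141) and 1.25 with PS20 (log2 0.33 ± 0.07, adjusted p = 3.913e-04) by edgeR. Both calls were lost in replicates 1 and 2 alone (log2 fold changes of 0.29 and 0.27, adjusted p of 0.0939 and 0.0972). PS80 and PS20 differed by a log2 fold change of -0.02 with a 95% interval of -0.16 to 0.12 (adjusted p = 0.8375 by edgeR).

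ALPI rose with PS20 and did not pass the test with PS80. Intestinal alkaline phosphatase dephosphorylates nucleotides and bacterial lipopolysaccharide at the apical surface. ALPI (ENSG00000163295.5, chr2:232456125-232460753) had 80.5, 94.6, 78.5, 78.0 and 79.3 CPM in PS80 replicates 1 to 5, and 107.2, 100.2, 98.6, 101.3 and 107.2 CPM in PS20 replicates 1 to 5, against 80.6, 83.4, 68.3, 73.9 and 78.2 CPM in control replicates 1 to 5. Every PS20 library lay above every other library. Over all tested genes, the ranges of PS20 did not overlap those of control for 32.5% and those of PS80 for 22.7%. The log2 fold change was 0.10 ± 0.07 with PS80 (95% interval -0.04 to 0.24, adjusted p = 0.2604) and 0.42 ± 0.07 with PS20 (1.33-fold, adjusted p = 2.564e-05) by edgeR. Between the emulsifiers ALPI was lower with PS80 by 0.32 on the log2 scale (-0.32 ± 0.06, adjusted p = 6.47e-04), a call that was lost in replicates 1 and 2 alone (-0.23, adjusted p = 0.1878).

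The relatives ALPP and ALPG lie on the same chromosome as ALPI and share much of its sequence, so reads may be assigned unevenly between these genes. ALPP averaged 3.98 ± 1.07 CPM with PS80, 2.98 ± 0.852 CPM with PS20 and 6.47 ± 1.85 CPM in control, and fell with both (log2 fold changes of -0.71 and -1.06, adjusted p of 0.0155 and 7.629e-04 by edgeR). ALPG averaged 3.38 ± 0.551, 3.52 ± 1.08 and 2.13 ± 0.446 CPM in the same order and rose with both (0.68 and 0.78, adjusted p of 0.0203 and 0.00688 by edgeR). The log2 ratio of ALPI to DPP4 counts was -2.85 ± 0.19 with PS80, -2.54 ± 0.12 with PS20 and -2.64 ± 0.13 in control (n = 5). PS80 was below PS20 by 0.31 (exact permutation p = 0.0317, adjusted over the 6 ratio tests 0.0635) and below control by 0.21 (exact permutation p = 0.0873, adjusted 0.131), and PS20 exceeded control by 0.10 (exact permutation p = 0.262). In pairs of the same number, PS80 was below control in 5 of 5, with differences of -0.35 to -0.05 (exact sign-flip permutation p = 0.0625). Without PS80 replicate 2 the adjusted exact permutation p was 0.0238 for PS80 against PS20 and for PS80 against control. This was the only pass, 1 of 10 and 1 of 11 alternatives, with highest adjusted exact permutation p of 0.111 and 0.238. Replicate 2 was the only PS80 library counted with the same version of featureCounts as the other groups. Without it the counting version and PS80 cannot be told apart.

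ANPEP fell with PS20 and did not pass the test with PS80, and the difference between the 2 emulsifiers passed as well. Aminopeptidase N removes neutral amino acids from the N-terminus of peptides. ANPEP (ENSG00000166825.15, chr15:89784895-89815401) had 11.7, 11.4, 8.05, 10.2 and 7.59 CPM in PS80 replicates 1 to 5, and 6.36, 6.08, 5.18, 6.82 and 7.31 CPM in PS20 replicates 1 to 5, against 12.01, 10.6, 6.68, 10.2 and 9.70 CPM in control replicates 1 to 5. The PS20 libraries lay below all PS80 libraries, and they overlapped control through control replicate 3, at 6.68 CPM. The ranges of PS80 and PS20 did not overlap for 22.7% of all tested genes. The log2 fold change was -0.02 ± 0.15 with PS80 (95% interval -0.33 to 0.30, adjusted p = 0.9535) and -0.66 ± 0.16 with PS20 (1.58-fold lower, adjusted p = 0.00188) by edgeR, and 0.65 ± 0.15 for PS80 over PS20 (adjusted p = 0.00247). With PS20 it was 1.81-fold lower in replicates 1 and 2 alone and 1.49-fold lower in replicates 3 to 5 alone, past the threshold in both.

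ENPEP was detected at a low level and did not pass the test in any comparison. Glutamyl aminopeptidase removes acidic residues from the N-terminus of peptides such as angiotensin. ENPEP (ENSG00000138792.10, chr4:110365733-110565285) had 1.82, 1.64, 2.98, 2.73 and 1.86 CPM in PS80 replicates 1 to 5, and 1.18, 1.22, 2.19, 2.35 and 1.92 CPM in PS20 replicates 1 to 5, against 1.501, 2.74, 2.39, 2.13 and 1.64 CPM in control replicates 1 to 5. The 3 groups overlapped throughout. The 95% interval of its log2 fold change was -0.54 to 0.46 with PS80 and -0.74 to 0.33 with PS20, so that a change of the size seen in DPP4 lies inside both (adjusted p of 0.926 and 0.545 by edgeR).

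MME had 1 count in PS80 replicate 1 and 0 in the other 14 libraries. Neprilysin, its product, is a zinc endopeptidase. A count of 0 in all libraries of a group allows up to 0.0617 CPM with PS20 and 0.0766 CPM in control, and the single count gives 0.011 CPM with PS80 (95% exact Poisson interval 2.79e-04 to 0.0614), counting error only.

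**Figure D4:**
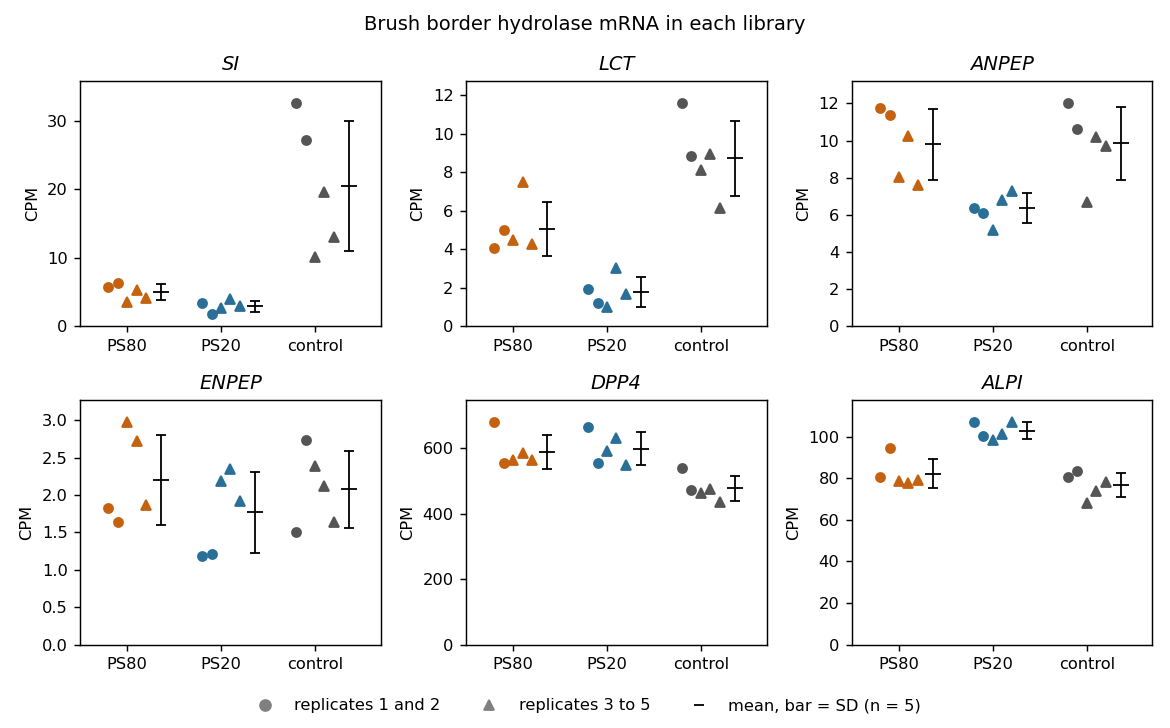
CPM of the 6 tested hydrolase genes in each library of PS80, PS20 and control, with circles for replicates 1 and 2, triangles for replicates 3 to 5 and a bar for the mean and SD of the 5 libraries. The means of SI and LCT are lowest with PS20, ALPI is highest with PS20, at 98.6 to 107.2 CPM, and DPP4 is higher with both emulsifiers than in control.

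Of the PS80 libraries, replicate 2 was counted with the same version of featureCounts, 2.0.0, as all control and PS20 libraries, and the other 4 with version 2.0.3, so that in those 4 the counting version and PS80 cannot be told apart. Replicate 2 itself had 6.34 CPM of SI, below the lowest control library of 10.03 CPM, 5.01 CPM of LCT, below the lowest control library of 6.15 CPM, and 555.6 CPM of DPP4, above the highest control library of 539.8 CPM. It also had 94.6 CPM of ALPI, above the highest control library of 83.4 CPM, whereas the other 4 PS80 libraries, at 78.0 to 80.5 CPM, lay within the control range. Without it the log2 fold changes against control were -2.15 for SI, -0.80 for LCT, 0.33 for DPP4 and 0.04 for ALPI (adjusted p = 0.671 by edgeR).

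The genes whose pattern was most like that of SI were NEB, FGB and AFP. Likeness was the root mean square difference of log2 CPM, centred on each gene's mean, over the 15 libraries, among 10289 other genes with a mean of at least 5 CPM. It was 0.40 for NEB, 0.41 for FGB and 0.50 for AFP, against a median of 1.22 over those genes. FGB, a fibrinogen chain, averaged 101.9 ± 22.8 CPM with PS80, 55.3 ± 16.2 CPM with PS20 and 221.9 ± 73.5 CPM in control. AFP, alpha-fetoprotein, averaged 39.7 ± 15.5, 23.3 ± 5.83 and 82.9 ± 38.6 CPM in the same order. LCT was most like LAMA1 (0.405), FGB (0.42) and ENSG00000279348 (0.43), a gene listed by its identifier, with LAMA1, a laminin chain, at 109.2 ± 16.4 CPM with PS80, 47.6 ± 4.51 CPM with PS20 and 217.2 ± 35.9 CPM in control. SI and LCT differed from each other by 0.60, and SI from ALPI by 1.34.

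Other hydrolases of the cell surface were called in both directions. Of 36 such genes, a list that includes intracellular relatives, 20 were tested, and 2 rose and 5 fell with PS80 (median log2 fold change -0.13), 4 rose and 8 fell with PS20 (-0.23), and 3 were higher and 6 lower with PS80 than with PS20 (0.12). The called genes were 35% of the list with PS80 and 60% with PS20, beside 33.4% and 48.3% of all tested genes, and 45% between the emulsifiers, beside 35.5%. ACE, the angiotensin-converting enzyme and a peptidyl dipeptidase, rose to 3.10 ± 0.695 CPM with PS80 and 5.46 ± 0.563 CPM with PS20, against 1.85 ± 0.460 CPM in control (log2 fold changes of 0.78 and 1.56). DPEP1, a membrane dipeptidase, had 8.85 ± 2.41 CPM with PS80 (log2 fold change -0.39, adjusted p = 0.103 by edgeR) and fell to 5.41 ± 1.09 CPM with PS20 (-1.16), against 11.9 ± 2.57 CPM in control. ENTPD8, an ectonucleotidase, fell with both (-0.65 with PS80 and -0.78 with PS20), and CES2, a carboxylesterase, rose with PS20 (0.435). TMPRSS15, which encodes the enteropeptidase that activates trypsinogen, had 2 counts in all libraries, and MGAM2 and FOLH1 had 0.

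Among 16 listed transporters of the products of digestion, 13 were tested. With PS80 5 rose and 2 fell (median log2 fold change 0.18), with PS20 5 rose and 6 fell (-0.07), and 6 were higher and 2 lower with PS80 than with PS20 (0.22). The called genes were 53.8%, 84.6% and 61.5% of the list, beside 33.4%, 48.3% and 35.5% of all tested genes. SLC2A2, the glucose transporter GLUT2, fell to 4.22 ± 0.743 CPM with PS80 and 3.50 ± 0.648 CPM with PS20, against 10.6 ± 2.06 CPM in control (log2 fold changes of -1.36 and -1.58). SLC15A1, the proton-coupled transporter of di- and tripeptides, rose to 31.2 ± 4.10 CPM with PS80 and 27.8 ± 1.64 CPM with PS20, against 22.5 ± 3.93 CPM in control (0.49 and 0.31). SLC7A9, the light chain of a transporter of cystine and basic amino acids, rose with PS20 (1.003), the phosphate transporter SLC20A1 rose with both (0.31 with PS80 and 0.50 with PS20), and SLC16A10, an aromatic amino acid transporter, fell with both (-0.30 with PS80 and -0.83 with PS20). The sodium-glucose transporter SLC5A1 had 33 counts in all libraries and was not tested.

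Transcription factors known from the intestine moved in both directions. Of 29 listed, 26 were tested, and 4 rose and 4 fell with PS80, 6 rose and 3 fell with PS20, and 2 were higher and 4 lower with PS80 than with PS20 (median log2 fold changes 0.06, 0.09 and 0.04). The called genes were 30.8%, 34.6% and 23.1% of the list, beside 33.4%, 48.3% and 35.5% of all tested genes. CDX2, which binds the SI promoter, rose to 246.8 ± 24.8 CPM with PS80 and 244.3 ± 13.7 CPM with PS20, against 189.5 ± 17.1 CPM in control (log2 fold changes of 0.38 and 0.37). SOX9, a crypt and progenitor factor, rose with both (0.52 and 0.83), and FOXA1 (-0.37 and -0.47) and PRDM1 (-0.70 and -0.79) fell with both. HNF4A, a factor of enterocyte differentiation, had log2 fold changes of -0.05 with PS80 (adjusted p = 0.5192 by edgeR) and -0.04 with PS20 (0.5486), and was chosen after its values were seen.

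Of 25 genes of apical sorting, glycan handling and the lipid anchor of proteins such as ALPI, 24 were tested. With PS80 4 rose and 2 fell (median 0.06), with PS20 8 rose and 6 fell (0.11), and 5 were higher and 5 lower with PS80 than with PS20 (-0.03). The called genes were 25%, 58.3% and 41.7% of the list, beside 33.4%, 48.3% and 35.5% of all tested genes. MYO1A, the brush border myosin, fell to 38.8 ± 8.25 CPM with PS80 and 32.8 ± 5.64 CPM with PS20, against 67.6 ± 18.5 CPM in control (log2 fold changes of -0.79 and -1.06). STX3, the apical syntaxin, fell with both (-0.19 and -0.59). With PS20 CANX, the chaperone calnexin, rose by 0.42 and PIGT, a subunit of the transamidase that attaches lipid anchors, by 0.37.

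**Figure D5:**
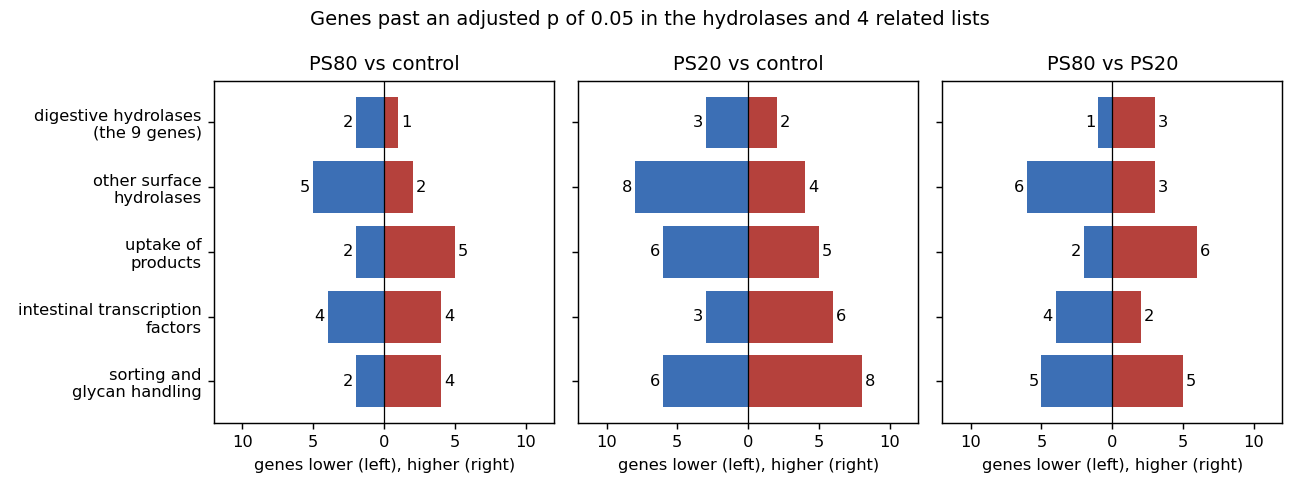
Number of genes past an adjusted p of 0.05 in the 9 digestive hydrolases and in 4 lists of related genes, lower to the left and higher to the right, for PS80 against control, PS20 against control and PS80 against PS20. Of the 9 hydrolases 6 were tested, with 2 lower and 1 higher for PS80 and 3 lower and 2 higher for PS20. Over all tested genes 16% were lower and 17.4% higher with PS80, and 23.9% lower and 24.4% higher with PS20.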

How the data were processed

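RNA was measured in 15 Caco-2 libraries. Each deposited table holds whole-number read counts per gene of 1 library, made by the authors without normalization. Per the file headers, reads were counted with featureCounts (2.0.0 in 11 libraries, 2.0.3 in 4) on the GENCODE release 42 annotation that includes patches and scaffolds. Reads needed a mapping quality of at least 10, and strand and pairing options were not set, so antisense reads are not separated. Per the submitters' processing notes, cutadapt, STAR 2.7.9a and DESeq2 1.32.0 were used with GRCh38. Per the labels' protocols, libraries were made from polyadenylated RNA.

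A gene symbol was paired with 62625 of 69215 genes (90.48%). The counts were tested in R 4.3.3 with edgeR 4.0.16: genes kept by filterByExpr (minimum count 10, minimum total 15; 12769 genes), trimmed mean of M-values factors (0.978 to 1.02), a quasi-likelihood fit to the 15 libraries with a coefficient for each of the 3 groups, and Benjamini-Hochberg adjustment over all tested genes at 0.05. The common biological coefficient of variation was 8.91%. Log2 CPM used a prior count of 2. Intervals are at the 95% level. The limit at 0 is 3 counts. Alternatives were RLE size factors, DESeq2 1.42.0, no filter, each library left out, a replicate block, 2 groups only, parts of the replicates and, added after seeing the data, a robust dispersion and pairs in the ratio tests.

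Replicate numbers are shared between groups. Deviations of same-numbered libraries correlated over 0.1 in all 5 pairs of PS80 and control (0.102 to 0.304), which were taken as pairs, and in 3 of 5 pairs of PS20 and control and 3 of 5 of PS80 and PS20, which were not. For PS80 replicates 1 and 5 a control library of another number correlated more, at 0.171 and 0.215 against 0.139 and 0.124. Between PS20 and control this held for replicate 4, and between PS80 and PS20 for replicates 2 and 4. The pairing is thus uncertain. The ratio tests left out each library in turn as well. No 2 of the 105 pairs of libraries held identical counts.

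The 9 genes and the lists were chosen with earlier results of these data known. The rule for named genes took all 9, up to 3 members with the smallest p per direction of each related list, the markers of highest level or at 0, and the 3 genes most like SI and LCT; some genes it named are not described, and 1 result is not reported here.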

Additional observations from a re-analysis of the deposited data

Results flagged for a closer look

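Single libraries stood apart within their group for 3 of 21 combinations of hydrolase gene and group with at least 15 counts, where chance gives about 1 in 20. The gap of each to the nearest library, divided by the range of the group, exceeded the critical value of 0.71 for 5 libraries. All 3 were the highest value of a PS80 group. LCT in PS80 replicate 4 was at 7.5 CPM, with the nearest library at 5.01 CPM. DPP4 in PS80 replicate 1 was at 682 CPM, with the nearest at 587 CPM. ALPI in PS80 replicate 2 was at 94.6 CPM, with the nearest at 80.5 CPM.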

How the results depend on the processing

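The 6 tested genes in 3 comparisons, each under 18 alternatives, gave 324 results, of which 297 kept their direction and their side of the threshold, 11 lost their call, 0 gained one and 16 changed sign. The calls of SI, LCT, ANPEP and ALPI with PS20, of SI with PS80 and of LCT and ANPEP between PS80 and PS20 held under all 18. The sign changes were all of log2 fold changes that had not passed. With PS80 against control ANPEP gave 0.0094 with no filter and 0.039 in replicates 1 and 2 alone, and with 1 library left out it ranged over -0.11 to 0.073, above 0 without control replicate 1 or 2 or PS80 replicate 3 or 5. ENPEP gave 0.0052 with no filter, 0.20 in replicates 3 to 5 alone, and -0.13 to 0.096 with 1 library left out, above 0 without control replicate 2 or PS80 replicate 2 or 5. With PS20 against control ENPEP gave 0.097 in replicates 3 to 5 alone. Between PS80 and PS20 DPP4 gave 0.0097 with no filter, 0.019 in replicates 1 and 2 alone, and -0.077 to 0.021 with 1 library left out, above 0 without PS20 replicate 1 or PS80 replicate 2.

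Replicates 1 and 2 alone, with 2 libraries a group, called 2025 genes with PS80, 3116 with PS20 and 1397 between PS80 and PS20, against 4266, 6163 and 4527 with all libraries. There 0 of the 6 genes were called higher with PS80, 1 with PS20, and 0 lower with PS80 than with PS20. In replicates 3 to 5 alone 1 was called lower with PS80. Fewer libraries enter these fits. Leaving out 1 library gave 3566 to 4167 genes with PS80, 5608 to 6065 with PS20 and 3840 to 4420 between PS80 and PS20. The counts of the 6 genes then stayed at 1 higher and 2 lower with PS80, 2 higher and 3 lower with PS20, and 2 to 3 higher and 1 lower between them. With the replicate number as a block 5160, 6871 and 5451 genes were called, in this order. The block changed no call of the 6 genes. For the ratios between PS80 and control the paired test could not decide this, as its smallest exact sign-flip permutation p is 0.0625. At the depth of these libraries MGAM, TREH and MME did not enter the main test, and with no filter they were not called in any comparison.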
